A study of Mus musculus with 17 samples.

Results

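Arachidonate-rich fungal oil was set against a control diet in the hippocampus of mice, with 1 RNA a diet, each hybridised to a pair of oligonucleotide arrays (chip A and chip B). Arrays were taken by their titles, and the 4 arrays of these RNAs are among 17 arrays of liver and hippocampus. The mice were male Rj:NMRI, an outbred stock, housed 10 to a cage, and 10 mice received each diet until day 57 or 58, when they were killed in the morning after up to 6 h without food. In the fungal oil diet, 1.1% arachidonate-rich fungal oil took the place of some medium-chain oil. The control diet held milk fat, palm olein, sunflower, soybean and medium-chain oils without either test oil. For comparison, the hippocampus RNAs of mice fed 1.9% fish oil, or both oils together, are given beside them and set against the same control arrays. The RNA of both oils was analysed on chip B only. The hippocampus was taken from 5 mice chosen at random per diet, and the sources used here do not say how many of them each RNA holds. The mice of 1 diet may have shared 1 cage, and cage, day of death and diet cannot be told apart.

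Arachidonate is an omega-6 fatty acid of membrane phospholipids, abundant in brain, from which phospholipases and cyclooxygenases make prostaglandins. The hippocampus is a folded cortex of principal neurons and GABA interneurons. The meninges cover it and the choroid plexus lies beside it, and between them these tissues are rich sources of prostaglandin D synthase, transthyretin and insulin-like growth factor 2. A dissected hippocampus can hold some of both.

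An intensity is the brightness of a probe set, the group of oligonucleotides that reads 1 transcript, as the authors deposited it. Values under a floor of 15 were set to the floor, and a log2 ratio is fungal oil over control, so that 1.00 is 2-fold. Probe sets with a mean over the hippocampus arrays at or above the median of the chip were kept, 6538 of 13069. They name 3525 genes, each read by its brightest probe set. The filter mean holds the fungal oil and control arrays, so a dim probe set can be kept through an array in which it is high. With 1 array a side and chip no ratio has a replicate check, no p-value was computed, and the values compare these RNAs rather than the diets. In bulk tissue, fewer cells of a type and less RNA per cell cannot be told apart.

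The largest ratios of bright genes belonged to Acta2, actin of smooth muscle around vessels, and Ptgds, lipocalin-type prostaglandin D synthase, which turns the product of cyclooxygenase into prostaglandin D2. The start region of both is shown because these ratios lead the data, and that of Sst, somatostatin, because 2 probe sets read it alike. Each sequence runs from 250 bases before to 50 bases after the start of the gene in RefSeq for GRCm38.p6, at chr19:34255324-34255623, chr2:25469700-25469999 and chr16:23890795-23891094, all on the minus strand, written 5′ to 3′. Capitals mark any match to the motifs searched on both strands, which were the TATA box TATAAA, the cyclic AMP response element TGACGTCA, the E-box CACGTG and the strict CArG box with every base as in its consensus, and no match overlaps another.
Acta2: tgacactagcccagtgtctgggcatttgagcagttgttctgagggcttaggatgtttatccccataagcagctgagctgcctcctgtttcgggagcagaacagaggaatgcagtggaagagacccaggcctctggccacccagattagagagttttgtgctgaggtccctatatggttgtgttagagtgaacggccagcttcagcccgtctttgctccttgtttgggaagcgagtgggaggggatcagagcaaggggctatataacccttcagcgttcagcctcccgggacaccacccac
Ptgds: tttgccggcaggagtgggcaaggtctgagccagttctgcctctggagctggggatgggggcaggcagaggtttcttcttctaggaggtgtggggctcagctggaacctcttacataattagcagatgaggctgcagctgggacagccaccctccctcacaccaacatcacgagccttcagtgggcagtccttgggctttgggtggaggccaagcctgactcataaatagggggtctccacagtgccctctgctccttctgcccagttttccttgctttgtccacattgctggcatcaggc
Sst: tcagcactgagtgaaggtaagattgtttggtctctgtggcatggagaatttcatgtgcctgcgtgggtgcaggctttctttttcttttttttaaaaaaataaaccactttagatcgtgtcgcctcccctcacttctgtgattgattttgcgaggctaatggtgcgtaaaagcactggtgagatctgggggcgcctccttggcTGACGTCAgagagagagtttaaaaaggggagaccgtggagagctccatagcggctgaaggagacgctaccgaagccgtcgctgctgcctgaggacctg
Sst holds the cyclic AMP response element, which 1.79% of 32851 such windows hold. The TATA box letters were in 13.6% of the windows, the E-box in 7.15% and the strict CArG box in 1.63%, and these exact letters are not in the Acta2, Ptgds or Sst window. Forms that differ from a motif by a base, as functional CArG boxes can, were not searched for, so no match here says nothing of a factor or of a working element.

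Acta2 read 598 with fungal oil, 240 with fish oil, 298 with both oils and 112 with control, a log2 ratio of 2.42, or 5.34-fold. Ptgds read 3118 with fungal oil, 1843 with fish oil and 624 with control, a log2 ratio of 2.32. In both genes the fungal oil array was highest and the control array lowest. Ptgds is also the brightest gene past 2-fold, so its ratio lies far from the floor.

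Across all 6538 kept probe sets, 198 (3.03%) were at least 2-fold higher with fungal oil and 146 (2.23%) at least 2-fold lower. Of the 198, 81 have no gene symbol, as do 62 of the 146. By gene the counts were 102 (2.89%) and 64 (1.82%) of 3525. The median log2 ratio over all genes was -0.02. Most probe sets past 2-fold were dim, with a median brightness of 83.2 for the higher and 77.8 for the lower ones, against 189 over all kept. Of 1842 genes at or above the 75th percentile of their chip, called bright here, 12 (0.651%) were at least 2-fold higher and 6 (0.326%) at least 2-fold lower.

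A rough scale for these ratios can be taken from the liver, where 2 control RNAs were run. Of 6537 kept liver probe sets, 687 (10.5%) were at least 2-fold apart between these controls, a larger share than between fungal oil and control in hippocampus. Among the brightest of 4 equal groups of chip A, 0.368% of probe sets were past 2-fold between fungal oil and control in hippocampus, and 0.123% between the liver controls. In the same group of chip B the shares were 0.244% and 1.59%. The SD of the log2 ratios was 0.46 for fungal oil over control and 0.50 between the liver controls on chip A. On chip B these SDs were 0.56 and 0.80. Within hippocampus on chip A, 3.86% of probe sets were past 2-fold for fungal oil over control. The share was 2.70% for fish oil over control and 1.87% for fungal oil over fish oil. On chip B these 3 shares were 6.66%, 8.95% and 7.58%. The kept liver probe sets reached dimmer values, from 46 on chip A and 29.6 on chip B, against 60.7 and 43.25 in hippocampus. On chip A the 3′ to 5′ ratio of Gapdh was 2.07 and 1.91 in the liver controls. In hippocampus it was 0.906 with fungal oil and 0.840 with control. The part of either in these shares was not tested. The labels do not say whether the liver controls came from separate animals, and liver is another tissue. This is therefore a scale and not an error of the ratios here.

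**Figure D1:**
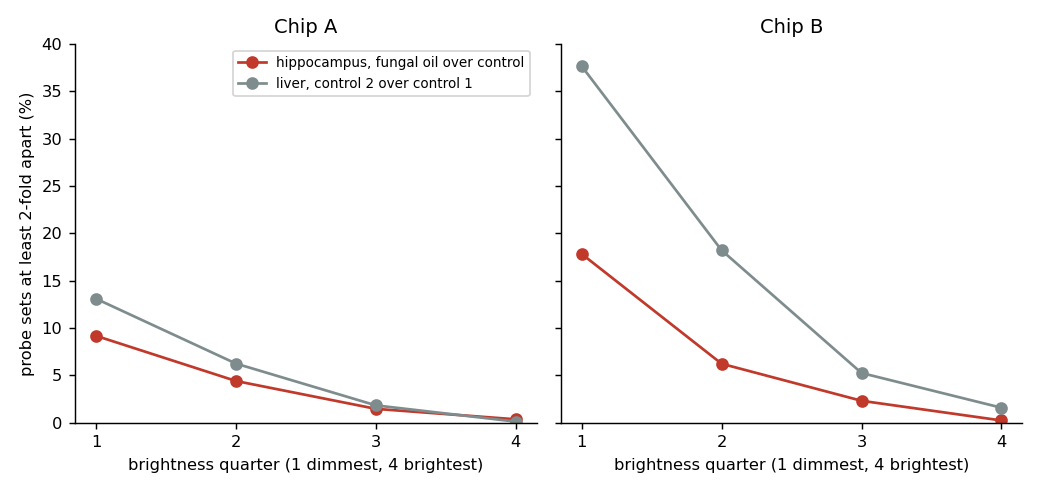
Percent of kept probe sets at least 2-fold apart, in 4 equal groups by brightness (1 dimmest, 4 brightest), on chip A (left) and chip B (right), for fungal oil over control in hippocampus (red) and 1 control RNA over the other in liver (grey). On chip B the dimmest group holds 17.8% for the hippocampus pair and 37.7% for the liver pair, and the brightest 0.244% and 1.59%.

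Genes that the arrays read more than once show the same limit. Of 519 genes with at least 2 kept probe sets, 277 (53.4%) had ratios of 1 sign on all of them. For 173 genes with a kept probe set on each chip, the log2 ratios on chip A and chip B had a Pearson r of 0.08, given as a description over genes that share the same RNAs. For the 83 of them that were bright on both chips it was 0.12. Where the very same probe set sits on both chips, 5 such were kept. The 4 other than P-Select_at had log2 ratios between -0.04 and 0.19 on either chip, and P-Select_at gave -0.41 on chip A and 0.23 on chip B.

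**Figure D2:**
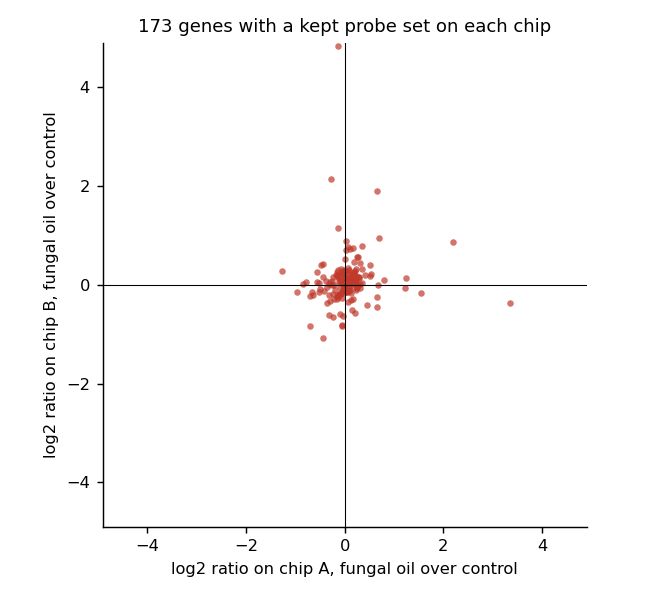
Log2 ratio of fungal oil over control on chip A (horizontal) and chip B (vertical) for the 173 genes with a kept probe set on each, 1 point a gene. Points gather at 0 and follow no line, with a Pearson r of 0.08.

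By the rule for named genes, the 15 largest log2 ratios above 0 among bright genes ran from 0.90 to 2.42. They were chosen for their ratio, so what follows describes them. After Acta2 and Ptgds came Kmt2e, a chromatin regulator with a SET domain, with 280 with fungal oil, 270 with fish oil and 75 with control, and Dcn, decorin, a small proteoglycan that binds collagen fibres, with 511, 351, 631 with both oils and 138 with control. Ccn3, a secreted protein of the extracellular matrix, read 408, 304, 504 and 144 in the same order. In Dcn and Ccn3 the array of both oils was highest and control lowest.

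Igf2, insulin-like growth factor 2, read 805 with fungal oil, 415 with fish oil and 353 with control, a log2 ratio of 1.19. Mgp, matrix Gla protein, a mineral-binding protein of matrix, read 254, 149, 275 with both oils and 125 with control, a log2 ratio of 1.02. Vtn, vitronectin, an adhesion protein, read 324 with fungal oil, 205 with fish oil and 164 with control, just inside 2-fold. The other genes of the 15 were Eif1b, Tubg2, Zfp871, Dcaf11, Klc4, Traf2 and Nr5a1, with log2 ratios from 0.90 to 1.55. Against the mean of all other hippocampus arrays in place of control, the log2 ratios of Acta2 and Ptgds were 1.58 and 1.54, that of Dcn 0.71, Ccn3 0.54 and Tubg2 0.42. In all 15 the control array was the lowest of the arrays, and in 10 fungal oil was the highest.

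Of these 15 genes, 2 had a second kept probe set, and in both it turned the sign. Over all 6 genes past 2-fold with at least 2 kept probe sets, 2 had ratios of 1 sign on all of them. Eif1b, a translation initiation factor, read 1243 with fungal oil and 424 with control on chip A, but 597 and 671 on chip B. Klc4, a kinesin light chain, had log2 ratios of 1.04 and -0.03 on its 2 probe sets, both on chip A. Sst, a peptide of a class of GABA interneurons, was steadier. Its brighter probe set read 1602 with fungal oil, 1590 with fish oil, 1930 with both oils and 907 with control, and the second 1508, 1564, 1795 and 969. On both Sst probe sets the 3 oil arrays lay close together and control was lowest, with log2 ratios of 0.82 and 0.64. Whether the 2 probe sets share oligonucleotides was not tested.

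**Figure D3:**
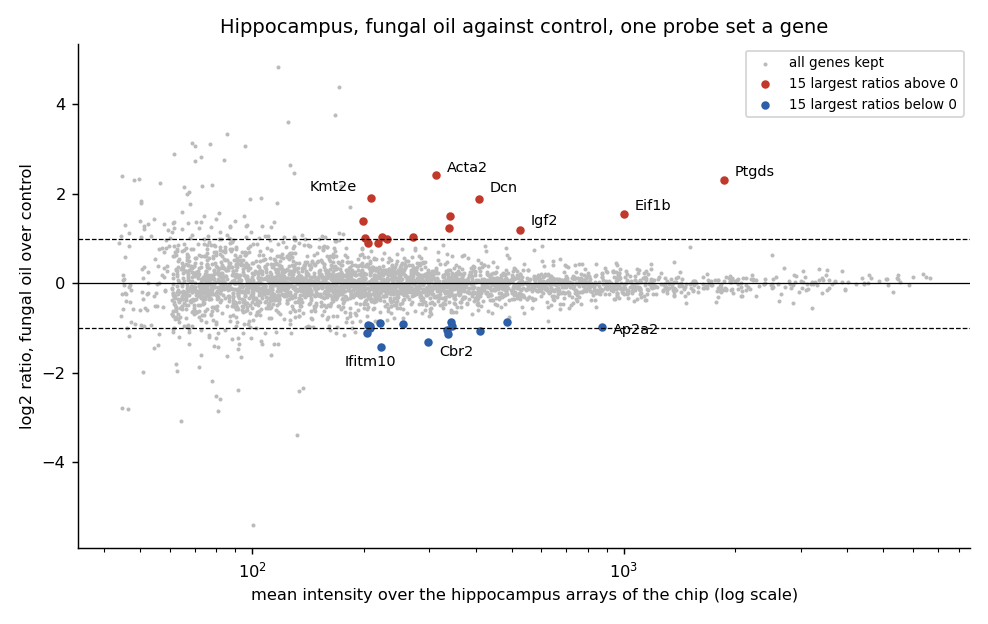
Log2 ratio of fungal oil over control (vertical) against mean intensity over the hippocampus arrays of the chip (horizontal, log scale) for 3525 genes, with the 15 largest bright ratios above 0 in red and below 0 in blue, and dashed lines at 2-fold. The spread widens towards dim genes, and Ptgds is the brightest of the genes past 2-fold.

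The 15 largest ratios below 0 were smaller, from -0.86 to -1.42, and 6 of them were past 2-fold. Ifitm10, of the interferon-induced transmembrane family, read 145 with fungal oil, 134 with fish oil and 387 with control. The fungal oil and the fish oil array thus each lay below control. Cbr2, a carbonyl reductase, read 137 with fungal oil, 307 with fish oil, 408 with both oils and 339 with control, where fungal oil alone was low. Myoz1, a protein of the muscle Z-disc, read 243, 442, 448 and 509 in the same order. Ube2s, a ubiquitin-conjugating enzyme of the anaphase-promoting complex, read 204 with fungal oil, 357 with fish oil and 451 with control. Slc4a3, an anion exchanger, read 200, 390 and 415 in that order. The sixth was 1810058I24Rik, a gene named by its clone only, with a log2 ratio of -1.12.

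Ap2a2, a subunit of the clathrin adaptor AP-2, was the brightest of them and read 559 with fungal oil, 967 with fish oil and 1093 with control. Its other chip A probe set had a log2 ratio of -0.76, and its chip B probe set -0.15. Dgat2, which makes triglycerides, read 280 with fungal oil, 284 with fish oil, 275 with both oils and 542 with control, so the 3 oil arrays were nearly equal and control high, and against the mean of all other arrays its log2 ratio was -0.32. Hadha, of mitochondrial fatty acid oxidation, read 220 with fungal oil, 411 with fish oil and 400 with control, where fungal oil alone was low. Across the 15, fungal oil was the lowest array in 13 and control the highest in 10. The rest were Rab5c, Slc25a10, Ppid, Zfp787, Csf3 and Mypop. Several of these genes are best known outside the brain, and whether their probe sets read those transcripts here was not tested.

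**Figure D4:**
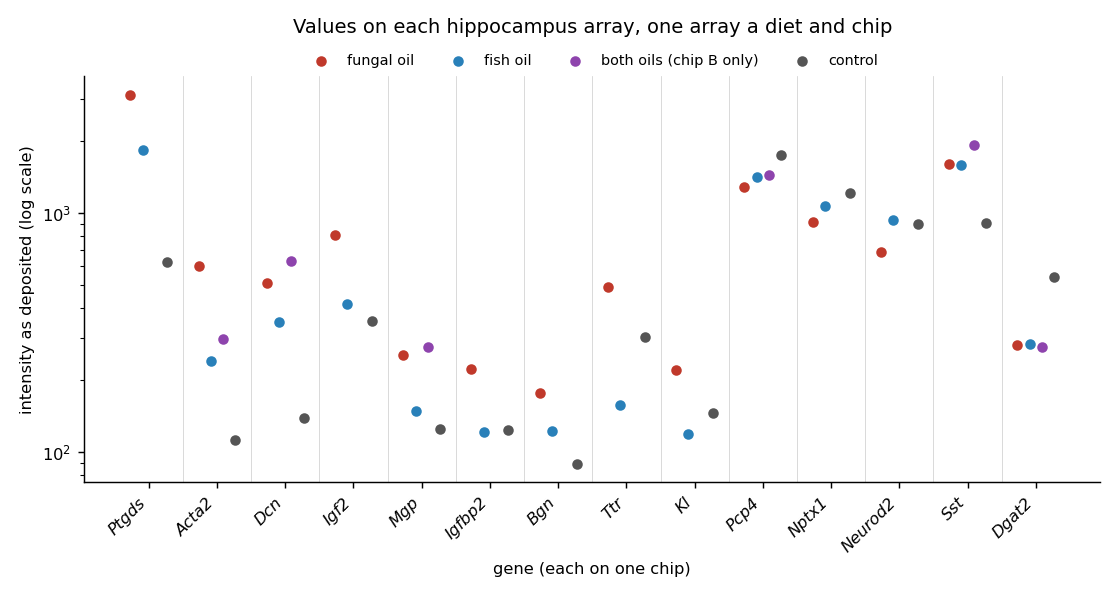
Intensity on each hippocampus array (log scale) of 14 genes, by diet, with fungal oil in red, fish oil in blue, both oils in purple for genes on chip B, and control in grey. Ptgds, Acta2, Dcn, Mgp and Igf2 lie highest with fungal oil or both oils and lowest with control, while Pcp4 and Nptx1 lie highest with control.

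Genes of the choroid plexus and meninges read higher as a group. Of the 21 on the arrays, 11 were kept, 10 of them were above 0, 4 were at least 2-fold higher (Ptgds, Igf2, Dcn and Mgp) and the median log2 ratio was 0.84, against -0.02 over all genes. Bgn, biglycan, reached 0.99 and Igfbp2, a binding protein of insulin-like growth factors, 0.84. Ttr, transthyretin, the main product of the choroid plexus, read 490 with fungal oil, 157 with fish oil and 304 with control. Kl, klotho, which choroid plexus also makes, read 221 with fungal oil, 119 with fish oil and 145 with control. In both, fungal oil was highest and fish oil lowest, unlike Ptgds. Rbp4, retinol-binding protein, was the 1 gene below 0, at -0.26.

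Summed over the 11 genes, the level was 6316 with fungal oil, 3698 with fish oil and 2362 with control, or 3198, 1855 and 1738 without Ptgds. The 2 genes Aldh1a2 and Lepr, were at the floor on all hippocampus arrays. Col1a2, Col3a1, Lum, Aqp1, Folr1 and Slc4a5 were too dim to be kept. How much of the difference is due to more of these tissues in the dissection was not tested.

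Vessel genes had a median log2 ratio of 0.30 (0.11 on chip A alone, which lacks Acta2), with 11 of 15 above 0. Acta2 and Tie1, an endothelial receptor, were past 2-fold. Tie1 was dim and read 111 with fungal oil, -20 with fish oil, 75 with both oils and 44 with control. Kdr, a receptor for vascular endothelial growth factor, read 371 with fungal oil, 404 with fish oil, 364 with both oils and 244 with control, and Tagln, another smooth muscle protein, had a log2 ratio of 0.39. The brightest, Ly6e and Bsg, had -0.05 and 0.10. The endothelial gene Flt1 and the pericyte genes Pdgfrb and Rgs5 lay between -0.13 and 0.12. A second Rgs5 probe set, as dim as the first, had -0.62. Matrix genes had a median of 0.09, with 19 of 29 above 0 and 5 at least 2-fold higher. These were Dcn, Fn1, Lama2, Col6a1 and Mmp9. Fn1, fibronectin, had 1.89 and 0.66 on its 2 probe sets. Lama2, a laminin chain, had 1.51, Col6a1, a collagen chain, 1.02 and Mmp9, a gelatinase, 1.00, all dim. The brightest of the list, Sparc, Col18a1 and Col4a4, had 0.15, -0.14 and -0.13. Over the 52 genes of these lists together, 10 (19.2%) were at least 2-fold higher and 0 at least 2-fold lower, against 92 (2.65%) and 64 of the other 3473 genes. The same RNAs are read throughout, so these genes share their source. The lists were chosen with earlier results in view. Dim members can also have been kept through the array in which they were high. Tie1, highest with fungal oil, had a filter mean of 52.5 against a chip B cut of 43.25. The share of 19.2% is not free of that selection.

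Markers of principal neurons and of hippocampal fields leaned the other way. Of 11 kept, 10 were below 0, none was past 2-fold and the median log2 ratio was -0.28. Pcp4, a calmodulin-binding peptide, read 1288 with fungal oil, 1411 with fish oil, 1446 with both oils and 1754 with control. Nptx1, neuronal pentraxin, read 918 with fungal oil, 1067 with fish oil and 1215 with control. Neurod2, a transcription factor of cortical neurons, read 689, 931 and 896 in that order. Control was highest in 9 of the 11, and Zbtb20 alone was above 0, at 0.08. Calb1, at -0.03, is also in the list of GABA neuron markers. Dsp had -0.11, but its second probe set, nearly as bright, turned the sign, at 0.22. The fish oil array is set against the same control array and had a median of -0.19 for these genes.

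Pcp4, Nptx1 and Neurod2, markers of the labelled tissue, were well above the median brightness of kept probe sets on every hippocampus array. Of 11 hepatocyte genes, 2 were kept, Serpina1a and Apoa2, with log2 ratios of 0.38 and 0.08, and 4 were at the floor on all hippocampus arrays.

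Lists of other cells had medians from -0.07 to 0.19. GABA neuron markers had a median log2 ratio of 0.19, with 5 of 8 above 0. Gad1, which makes GABA, read 1913 with fungal oil and 1834 with control, and the calcium-binding protein Calb2 877 and 646. Slc32a1, the vesicular transporter of GABA, had a log2 ratio of -0.18, Pvalb, parvalbumin, -0.09 and Calb1, calbindin, -0.03. A second, dimmer Slc32a1 probe set turned the sign, with 123 with fungal oil and 66 with control, a log2 ratio of 0.90. Kcnc1, a potassium channel, was past 2-fold but dim, with 85 with fungal oil, 28 with fish oil, 34 with both oils and 39 with control. Astrocyte genes had a median of 0.03, myelin genes 0.04 and microglia genes -0.05. The brightest astrocyte genes, Clu, Cst3 and Ndrg2, had log2 ratios of 0.15, -0.03 and 0.14, and a second, dimmer Cst3 probe set had 0.51. Of the myelin list, Car2 and Mobp had -0.10 each and Cryab, a small heat shock protein, -0.33. The second Mobp probe set turned the sign, with 417 with fungal oil and 237 with control, a log2 ratio of 0.82. Of the microglia list Lyz2, lysozyme, had 0.19, Ptprc -0.05 and Ctss -0.04. Blood genes were mixed, with 4 of 9 above 0 and a median of -0.07. Hba-a1, a haemoglobin chain, read 3262 with fungal oil, 2164 with fish oil, 2535 with both oils and 2102 with control, but its second probe set had a log2 ratio of -0.04. Hbb-b2, another haemoglobin chain, had 0.44, Hbb-bh1, an embryonic one, -0.20 and Slc4a1, the anion exchanger of red cells, -0.42. Cd3e, of the T cell receptor complex, was past 2-fold, with 51 with fungal oil, 131 with fish oil and 154 with control.

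Genes of lipid metabolism and of nuclear receptors, in 8 lists with 98 genes kept, were near 0. Their median log2 ratio was -0.01, 80 of 98 lay within 0.5 of 0, and 3 (3.06%) were at least 2-fold higher and 2 (2.04%) lower, close to the shares over all genes. Scd2, the main desaturase of brain, read 1721 with fungal oil, 1758 with fish oil and 1673 with control. Fabp5, a fatty acid carrier, read 783, 823, 823 with both oils and 807 with control. Tecr and Hacd3, of fatty acid elongation, had log2 ratios of 0.05 and 0.02, Dbi, an acyl-CoA carrier, -0.13 and Lpl, lipoprotein lipase, -0.26. Scp2 and Ech1, of peroxisomes, had 0.04 and -0.07. Apoe, the main lipid carrier of brain, had 0.19, Hmgcs1, of cholesterol synthesis, 0.26, and the sphingolipid genes Psap, B4galnt1 and Smpd1 lay between -0.12 and 0.07. Of the endocannabinoid genes, Mgll, which breaks down 2-arachidonoylglycerol into arachidonate, read 723 with fungal oil, 784 with fish oil and 939 with control, Faah had -0.13 and Daglb 0.17. The nuclear receptor genes Thra and Nr2f1 had -0.05 and 0.28. The enzymes that free or convert arachidonate had a median of -0.01 over 9 genes, with Ptgds alone past 2-fold, and Cbr1 had -0.01. Pla2g7, a phospholipase of platelet-activating factor, read 931 with fungal oil, 612 with fish oil, 865 with both oils and 746 with control. Of the other genes of these lists past 2-fold, Elovl2, a fatty acid elongase, read 40 with fungal oil, 97 with fish oil and 82 with control. Ppara, a fatty acid receptor, read 20, 46, 139 with both oils and 114 with control. Rarg, a retinoic acid receptor, read 164, 103 and 69, and Pld2, a phospholipase D, 89, 76 and 42 with fungal oil, fish oil and control. These 4 genes are all dim.

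**Figure D5:**
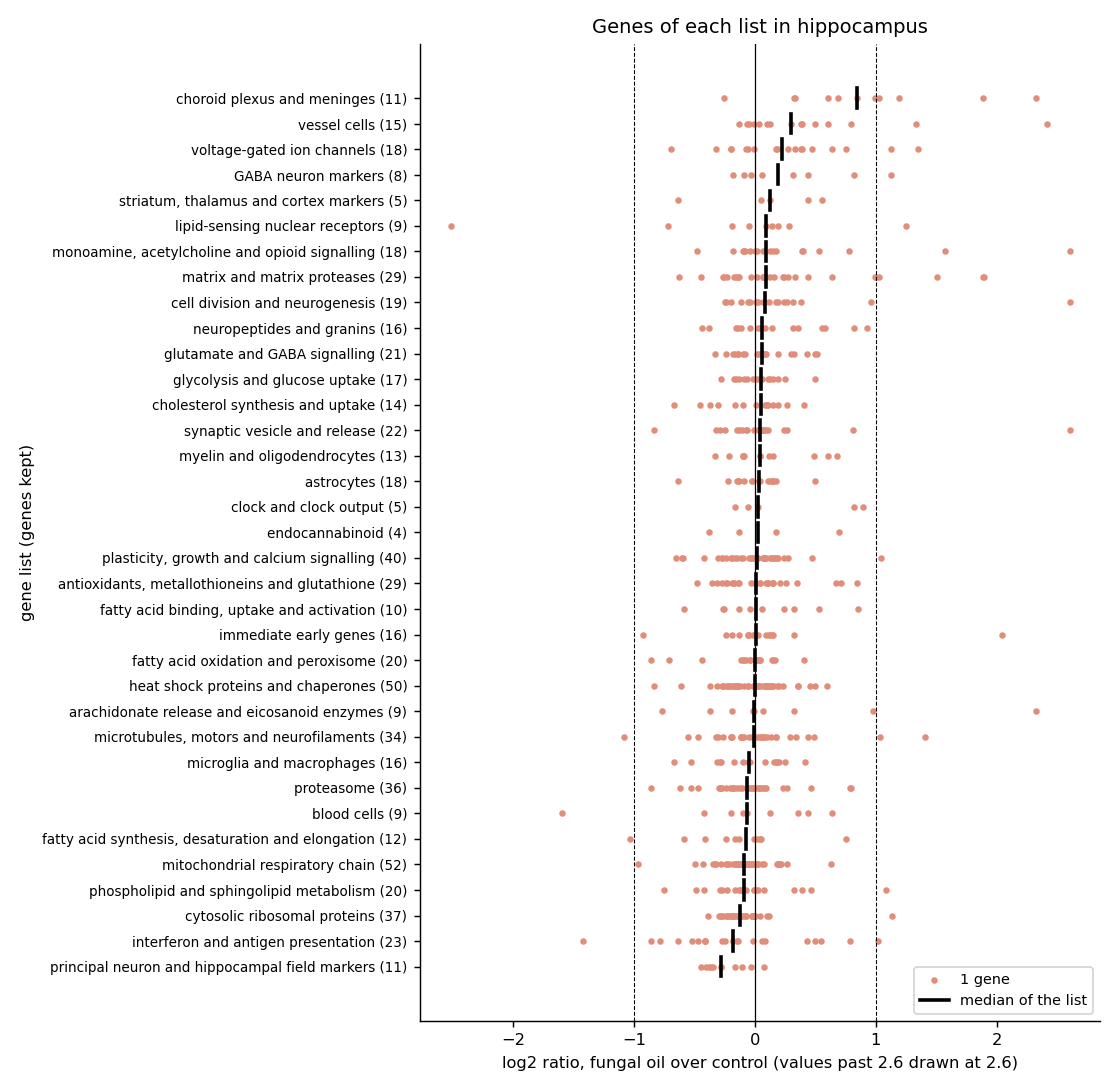
Log2 ratio of fungal oil over control for the genes of 35 lists with at least 3 kept genes (1 point a gene), ordered by median (black bar), with dashed lines at 2-fold. The choroid plexus and meninges list has the highest median, 0.84, and the principal neuron list the lowest, -0.28.

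Lists of cell machinery had medians a little below 0. Over all 3525 genes, 53.2% were below 0 and 46.2% above. Ribosomal protein genes had a median log2 ratio of -0.12 with 31 of 37 below 0, the respiratory chain -0.09 with 38 of 52, and the proteasome -0.06 with 24 of 36. Interferon and antigen presentation genes had a median of -0.18 with 16 of 23 below 0. Rps26, of the small ribosomal subunit, went against its list, with 235 with fungal oil, 171 with fish oil and 107 with control, while the brightest, Rpl41, Rpl3 and Rpl37a, had log2 ratios of 0.00, 0.00 and -0.21. The brightest respiratory chain genes, Cox4i1, Cox8a and Cox7c, lay between -0.15 and -0.01, and the brightest proteasome genes, Psmc5, Psmb1 and Psmd3, between -0.27 and 0.03. Of the interferon list, Ifi27 had 0.50, B2m, the light chain of class I molecules, -0.18, H2-Eb1, a class II chain, -0.47 and the dim H2-M1 1.02. Medians were 0.04 for synaptic genes, 0.02 for plasticity genes, 0.00 for heat shock genes and 0.01 for immediate early genes, and 27 of the 35 lists lay within 0.1 of it. Between the liver controls, list medians had an SD of 0.163, and 6 of the 35 hippocampus lists lay further from 0 than that. These were choroid plexus and meninges, vessel cells, voltage-gated ion channels, GABA neurons, interferon genes and principal neurons. The liver control medians furthest from 0 were -0.71 for GABA neuron markers, over 4 genes, and -0.59 for neuropeptides, over 9 genes. These lists widen the SD of 0.163, so it is a rough scale. For GABA neuron markers the liver control median lay further from 0 than the hippocampus median of 0.19.

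The brightest genes of the other lists had mostly small ratios, with larger ones among them for Ache, Cpe, Calb2 and Penk. Among synaptic genes, Ap2m1, Syp and Sncb had log2 ratios from -0.13 to 0.11. Among plasticity genes Calm2, Basp1 and Stmn3 had 0.18, -0.20 and -0.11, and the second Stmn3 probe set had 0.14. The glutamate receptor genes Gria1 and Gria2 had 0.07 and 0.04, and the muscarinic receptor gene Chrm1, the adrenergic receptor gene Adra2c and Ache, acetylcholinesterase, had -0.09, -0.09 and -0.48. Pcsk1n, Scg5 and Cpe, of peptide processing, had -0.04, -0.12 and 0.32, and Cpe had 0.01 on its chip B probe set. Aldoa, Gapdh and Pkm of glycolysis, Hspa8, Ppia and Hsp90aa1 among chaperones, and Mt3, Gstm1 and Prdx2 among antioxidants lay between -0.19 and 0.15. Tuba1a, a tubulin, had 0.04, and Id2, Tubb3 and Ccnd3 of the cell division list had -0.19, 0.03 and 0.07. In the list of striatum, thalamus and cortex markers, Calb2, Penk and Pde1b had 0.44, 0.56 and 0.05. Prkcd, a protein kinase C of that list, had -0.63 and -0.77 on its 2 probe sets.

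Of the remaining list members past 2-fold, the following were dim. Ier3, an immediate early gene, read 111 with fungal oil, 56 with fish oil, 76 with both oils and 27 with control, while the brightest of its list, Jund, Nr4a1 and Plk2, lay between -0.13 and 0.10. Htr5b, a serotonin receptor, read 107, 107, 75 and 36 in the same order, and Htr4, another, 130, 76, 89 and 12, at least 8.67-fold. In these 3 genes control was lowest. Dpysl2, a protein of axon growth, had a log2 ratio of 1.04, and Tubgcp4, of the gamma-tubulin complex, -1.08.

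Of the clock output genes, which vary over the day, Dbp read 206 with fungal oil, 84 with fish oil and 111 with control, and Per1 217, 125 and 123. Both were highest with fungal oil, while Csnk1d, the brightest of the list, read 1192, 1206 and 1242 and Bhlhe40 had a log2 ratio of 0.03. In liver Dbp was also higher with fungal oil, at 581 against 176 and 162 in the control RNAs. The liver log2 ratios of Per1, Bhlhe40, Csnk1d and Clock were 0.58, 0.63, 0.07 and -0.53. The mice were killed in the morning, but the day of death is given as a span of 2 days and no hour is given. The part of time of death was not tested.

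Some genes were read on 1 array only and at the floor on the other. Of all 6538 kept probe sets, 28 had control at the floor and 20 had fungal oil there. On chip A alone these counts were 12 and 0. Negative values made up 18.6% of the chip A control array and 15.3% of the chip A fungal oil array. With control at the floor, 14 of the 3525 genes were at least 4-fold higher with fungal oil. Cdkn1a, a cell cycle inhibitor, read 430 with fungal oil, at least 28.7-fold, but -6 with fish oil, 46 with both oils and -1 with control, and its chip A probe set had a log2 ratio of -0.13. Entpd6, a nucleotide-cleaving enzyme, read 316 with fungal oil, 232 with fish oil and -35 with control, at least 21.1-fold, and Vamp3, a vesicle fusion protein, 182, 192 and 1, at least 12.1-fold. In these 2 genes fish oil was also high, while in Cdkn1a fungal oil alone was high. Josd2, a deubiquitinase, and Polr2i, a subunit of RNA polymerase II, were at least 13.7-fold and 10.2-fold higher, but a second Josd2 probe set read 105 with fungal oil and 78 with control, a log2 ratio of 0.43. With fungal oil at the floor, 4 of the 3525 genes were at least 4-fold lower. Scgb1a1, a secretory protein of airways, read -130 with fungal oil, -216 with fish oil, 108 with both oils and 639 with control. That is at least 42.6-fold lower with fungal oil. Krtap9-1, a hair keratin-associated protein, Ihh, a hedgehog ligand, and Gcnt1, a glycosyltransferase, were at least 8.47-fold, 7.07-fold and 6.93-fold lower.

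The 18S ribosomal RNA control probe sets also differed between the arrays. On chip A the 3′ one read 203 with fungal oil, 810 with fish oil and 921 with control, and on chip B 293 with fungal oil, 852 with both oils and 1494 with control, so fungal oil was lowest on both chips. The 3′ to 5′ ratio of Gapdh was 0.906 with fungal oil and 0.840 with control on chip A, and 0.878 and 0.947 on chip B. The trimmed mean of every hippocampus array lay between 148 and 150. Their part in the ratios was not tested.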

How the data were processed

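Hippocampus and liver RNA was measured on 2 array types, and groups were taken from titles and descriptions. The deposited values are whole-number intensities, some negative. How the authors corrected background and scaled, and with what software, is not given in the sources used here. The trimmed mean (2% off each end) of each hippocampus array lay between 148 and 150, so they were used as deposited, with control probe sets apart. Values under a floor of 15 (0.1 of that mean) were set to it and log2 was taken. Probe sets no dimmer on average than their chip's median were kept, and genes named through the platform annotation where it gives 1 symbol. Genes named are the 15 largest bright ratios each way, the 5 brightest with a bound of at least 4-fold each way, and in 36 lists the 3 brightest genes and every gene past 2-fold; other genes named were chosen after their values were seen. The members and lists were chosen with earlier results of these data known. With 1 RNA per diet, the number of arrays and the signal over background limit the precision, and no test was run. Alternatives were quantile normalization, median centring, lowess, other floors and filters, the mean over probe sets, another comparator and chip A alone. The ratio code was tested on simulated data. Python 3.11.15, pandas 2.3.3, numpy 2.4.6, scipy 1.17.1 and statsmodels 0.14.6 were used.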

Additional observations from a re-analysis of the deposited data

Results flagged for a closer look

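In liver, Ube2s lay the other way. With fungal oil it read 466 in liver, against 190 and 217 in the control RNAs, a log2 ratio of 1.198, while in hippocampus it read 204 with fungal oil and 451 with control, a log2 ratio of -1.14. The difference between the tissues was not tested.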

How the results depend on the processing

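The 30 bright genes named by ratio kept their sign under every alternative that gave a value. They were chosen for large ratios on these same arrays, so a turn in sign was unlikely from the outset. Of the 35 lists, 13 kept their sign. Of those lists, choroid plexus and meninges ranged from 0.75 to 1.11, vessel cells from 0.11 to 0.44 and principal neurons from -0.35 to -0.18. Without a filter on dim probe sets, 592 were at least 2-fold higher and 428 lower; the medians were 0.0 for voltage-gated ion channels and 0.11 for vessel cells. At or above the 75th percentile the counts were 20 and 15, the SDs 0.285 (chip A) and 0.299 (chip B), and the medians 1.11 for choroid plexus and meninges and -0.0051, turned in sign, for voltage-gated ion channels. Against the mean of all other hippocampus arrays the counts were 105 and 97, the ratio of Tubg2 was 0.42 and that of Dgat2 -0.32, and Acta2 and Ptgds kept 1.58 and 1.54. On chip A alone the counts were 65 and 61, vessel cells had 0.11 and GABA neuron markers -0.032, turned in sign. Leaving out the genes of the meningeal, vessel and matrix lists, chosen after seeing the data, left 188 and 145. The cause was not tested, except that filters and 1 chip change which probe sets are counted. No paired analysis was possible because the hippocampus has 1 RNA per diet.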

Other observations

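The list named voltage-gated ion channels also holds other channel and transporter genes. Its median log2 ratio was 0.23 with 11 of 18 above 0, but the brightest were at or below 0. Clcn3, a chloride transporter, read 565 with fungal oil and 567 with control, Kcnn1, a calcium-activated potassium channel, 565 and 587, and Kcna1, a potassium channel of axons, 475 and 595. The 2 channels past 2-fold, Cacna1c and Kcnc1, were dim.

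Penk, the precursor of enkephalins, read 435 with fungal oil, 313 with fish oil, 477 with both oils and 296 with control, and its second probe set, on chip A, had a log2 ratio of 0.25. Dynll2, a dynein light chain, read 2635 with fungal oil, 3179 with fish oil and 3859 with control on 1 probe set and 2711, 2975 and 2629 on the other, so the ratio turns in sign at high brightness.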
